A study of Mus musculus with 18 samples.

Results

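The genes of insulin-like growth factor 1 (IGF1) and its binding proteins were described in nuclear RNA of mouse liver. The members were taken by symbol from the count table and number 9 of its 20105 genes: the hormone Igf1, its carrier subunit Igfals, its receptor Igf1r, and the binding proteins Igfbp1, Igfbp2, Igfbp3, Igfbp4, Igfbp5 and Igfbp7. All mice were female and carried HEP-INTACT, a mark on hepatocyte nuclei by which these nuclei are bound to beads and pulled from a suspension of liver nuclei (immunoprecipitation, IP). The promoter that drives the mark and the age of the mice are not given in the sources used here. The 18 libraries form 6 groups of 3: IP nuclei of frozen liver from fasted and from fed mice, IP nuclei of fresh liver from fasted and from fed mice, and the unbound supernatant nuclei of fresh liver from fasted and from fed mice. Fasted mice went without food for 16 h from the start of the dark phase, and fed mice ate ad libitum and were killed at the same time.

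IGF1 is a circulating growth factor made mainly by the liver under the control of growth hormone, and its transcription is known to decline when nutrients are short. In blood most of it is held by IGFBP3 or IGFBP5 together with the acid-labile subunit, the product of Igfals, in a long-lived ternary complex. The other binding proteins form smaller complexes that limit or deliver the hormone, and hepatic Igfbp1 is known to be repressed by insulin. Hepatocytes are known for low expression of the IGF1 receptor, and the other cells of the liver express more of it.

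Total counts were 41178186 to 43814180 per library in frozen IP of fasted mice, 13828945 to 49027343 in frozen IP of fed mice, 33242961 to 54434263 in fresh IP of fasted mice, 25675086 to 54166985 in fresh IP of fed mice, 34247281 to 37188834 in supernatant of fasted mice and 28315372 to 34770217 in supernatant of fed mice. Levels are given as CPM, the read count scaled to a common library size after trimmed-mean (TMM) factors. The 8 hepatocyte markers summed to 14325 to 26028 CPM in fresh IP and to 536 to 1344 CPM in supernatant, so the label of the IP held. Defining markers of other cell types were low but not at 0 in IP: the 8 endothelial markers summed to 28.2 to 59.7 CPM in fresh IP of fasted mice and 49.1 to 101 CPM in that of fed mice, against 2051 to 3177 CPM in supernatant. All 8 stellate cell, all 8 Kupffer cell and all 6 lymphocyte markers were likewise called lower in IP than in supernatant. The cholangiocyte markers were not depleted: they summed to 2.34 to 5.45 CPM in fresh IP of fasted mice and 3.41 to 5.50 CPM in fed mice, against 2.45 to 3.84 CPM and 1.59 to 3.10 CPM in supernatant, with 2 of 4 tested higher in IP and 1 lower. The RNA is nuclear and was not selected for poly-A, and each gene was counted over its whole span, so unspliced transcripts are part of each level. In such bulk libraries fewer cells of a type and less RNA per cell cannot be told apart.

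RefSeq promoters (GRCm38.p6, the mm10 build) were found for all 9 members, in 12 windows of 250 bases before an annotated start. They were searched on both strands for TGTTTAC (forkhead), CAAAACAA (the core of the insulin response element), TTCNNNGAA (STAT) and the palindromic glucocorticoid response element, and no match found overlaps another. Of the 12 windows, 3 held a match, and they belong to Igfbp1 and Igfals. The windows are shown for Igfbp1, Igfbp2 and Igfbp5, which moved most with fasting in hepatocyte nuclei, and for Igfals, each 5′ to 3′ on the strand of the gene with matches in capitals. That of Igfbp1 lies at chr11:7197537-7197786 on the plus strand and holds CAAAACAA from 108 to 101 bases before the start.
Igfbp1: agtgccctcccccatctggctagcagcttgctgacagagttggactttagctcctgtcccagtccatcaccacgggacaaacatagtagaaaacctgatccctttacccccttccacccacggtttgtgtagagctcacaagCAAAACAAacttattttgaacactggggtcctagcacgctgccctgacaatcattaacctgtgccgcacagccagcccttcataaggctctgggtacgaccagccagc
That of Igfals shown lies at chr17:24877981-24878230 on the plus strand, ahead of an annotated start 539 bases upstream of the counted span, and holds TGTTTAC from 242 to 236 and TTCCTAGAA from 58 to 50 bases before that start. Of the 3 Igfals windows, the one at the start nearest to the counted span, 23 bases from it, held 0 matches, and the one shown was picked because it holds 2.
Igfals: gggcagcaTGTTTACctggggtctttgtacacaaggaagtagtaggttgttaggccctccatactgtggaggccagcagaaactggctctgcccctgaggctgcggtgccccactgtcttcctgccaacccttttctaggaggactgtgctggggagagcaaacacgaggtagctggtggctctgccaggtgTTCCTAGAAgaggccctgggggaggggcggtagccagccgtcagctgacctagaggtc
Those of Igfbp2 at chr1:72824230-72824479 on the plus strand and of Igfbp5 at chr1:72874866-72875115 on the minus strand held no match, which says only that these letters are not in these windows.
Igfbp2: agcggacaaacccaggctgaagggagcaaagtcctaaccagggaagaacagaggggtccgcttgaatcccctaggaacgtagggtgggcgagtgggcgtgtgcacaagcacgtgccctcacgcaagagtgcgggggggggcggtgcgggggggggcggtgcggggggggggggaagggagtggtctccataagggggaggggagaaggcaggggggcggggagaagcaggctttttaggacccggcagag
Igfbp5: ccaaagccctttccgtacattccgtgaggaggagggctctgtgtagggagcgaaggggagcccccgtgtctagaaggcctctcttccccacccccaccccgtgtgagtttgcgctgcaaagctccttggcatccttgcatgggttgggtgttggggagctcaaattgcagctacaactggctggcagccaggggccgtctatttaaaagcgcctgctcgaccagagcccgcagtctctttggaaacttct
Of 32851 mouse promoter windows of this length, 2.21% held CAAAACAA, 3.17% held TGTTTAC, 7.02% held TTCNNNGAA and 0.00913% held the glucocorticoid response element.

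Fasting changed RNA of 3 binding proteins and of the carrier subunit in hepatocyte nuclei of fresh liver. In these fresh hepatocyte nuclei, RNA of Igfbp1 and Igfbp2 rose and RNA of Igfbp5 and Igfals fell, while the hormone gene Igf1 did not pass the test. In frozen hepatocyte nuclei the same 4 genes changed in the same directions and Igfbp7 fell as well. In supernatant nuclei Igfbp1 rose and Igf1 fell. Mean Igfbp1 there was 7.94 CPM in fasted mice and 1.10 CPM in fed mice, against 274 and 49.4 CPM in fresh IP. The part of hepatocyte nuclei left in the supernatant in this rise was not tested. A gene was called when its Benjamini-Hochberg adjusted p in edgeR's quasi-likelihood test, over all genes tested, was under 0.05. By this rule 4 of 9 members were called in fresh IP (2 higher and 2 lower), where 25.1% of 12548 genes were called (12.4% higher and 12.6% lower). Leaving out 1 library left 1 to 3 members called in fresh IP, and only Igfbp5 was called in each of the 6 omissions. In frozen IP 5 of 9 were called (2 higher and 3 lower), against 22.6% of 12926 genes (11% higher and 11.6% lower). In supernatant 2 of 9 were called (1 higher and 1 lower), against 6.22% of 13921 genes (3.38% higher and 2.84% lower). The median log2 change of the members was -0.33 in frozen IP, -0.08 in fresh IP and 0.31 in supernatant, against 0.01, 0.01 and 0.00 over all genes tested. The fresh IP, the frozen IP and the supernatant come from the same mice, so they do not give independent support.

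**Figure D1:**
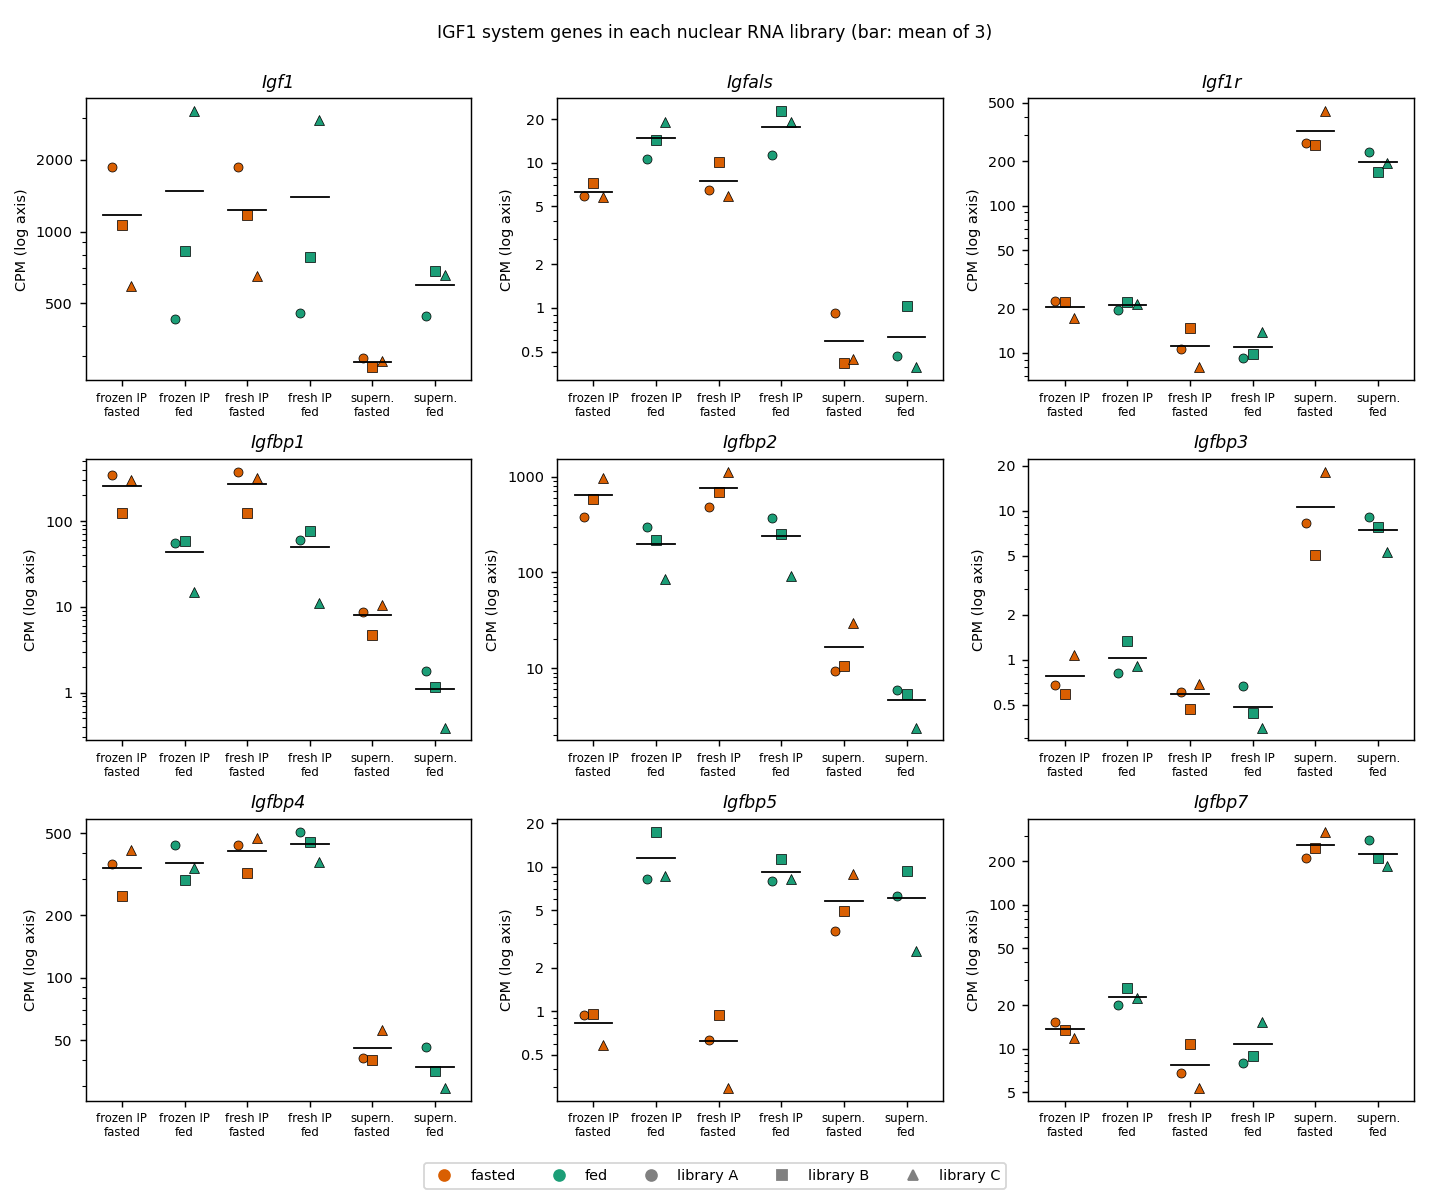
Level of each of the 9 genes in every library, in CPM on a log axis. Points are libraries (orange fasted, green fed, shape for the library letter) and bars are means of 3. Igfbp5 separates fasted from fed mice in both IP fractions, and Igf1 of fed mice spreads from 456 to 2937 CPM in fresh IP.

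Igf1 (chr10:87859056-87937047, plus strand) encodes the hormone itself, and its level in hepatocyte nuclei differed more between mice of one feeding state than between the states. In fresh IP the libraries A, B and C held 1864, 1173 and 653 CPM in fasted mice, against 456, 779 and 2937 CPM in fed mice. In frozen IP they held 1861, 1069 and 588 CPM in fasted mice, against 429, 826 and 3193 CPM in fed mice. The groups overlap in both preparations, and the highest and the lowest value both come from fed mice. The log2 change with fasting was -0.17 ± 0.93 (SE) in fresh IP (edgeR adjusted p = 0.871) and -0.33 ± 0.98 in frozen IP (adjusted p = 0.754). Without fed library C the change was 1.01 in fresh IP (adjusted p = 0.139) and 0.90 in frozen IP (adjusted p = 0.228), and in fresh IP it was 0.13 without fasted library C (adjusted p = 0.911). Over the 6 single omissions the adjusted p in fresh IP was 0.139 to 0.919 and in frozen IP 0.228 to 0.988.

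The supernatant gave another picture for Igf1. There the libraries held 294, 270 and 287 CPM in fasted mice, against 442, 683 and 659 CPM in fed mice, and the groups do not overlap. The hormone gene fell by 1.06 ± 0.21 on the log2 scale (edgeR adjusted p = 0.0154). The call ended without fed library B (-0.96, adjusted p = 0.0514), without fasted library A (-1.09, adjusted p = 0.0636) and in a single fit of all 18 libraries (-1.06, adjusted p = 0.508); over the 6 single omissions the adjusted p was 0.00505 to 0.0636. The summed hepatocyte markers were 843 to 1344 CPM in supernatant of fasted mice and 536 to 920 CPM in supernatant of fed mice, which overlaps and runs the other way; their part in the result was not tested. The 8 Kupffer cell and macrophage markers summed to 3205 to 4593 CPM in supernatant of fasted mice and 4731 to 6715 CPM in supernatant of fed mice, and the 8 stellate cell and fibroblast markers to 717 to 819 CPM and 773 to 1207 CPM in the same order. The 6 lymphocyte markers summed to 1754 to 2036 CPM in fasted mice and 2279 to 3127 CPM in fed mice. These 3 sums are lower or partly lower in fasted mice, as Igf1 is. The endothelial sum runs the other way with overlap, at 2404 to 3177 CPM in fasted mice and 2051 to 2612 CPM in fed mice. By gene, 0 of 8 Kupffer cell, 1 of 8 stellate cell and 1 of 6 lymphocyte markers were called lower in supernatant. Their median log2 changes were -0.39, -0.55 and -0.27. Clec4f (0.08), Dcn (0.57) and Des (0.33) of these lists changed upward and were not called. Of the endothelial markers 1 of 8 was called higher (median 0.38). Over all genes 2.84% were called lower and 3.38% higher. The part of these cells in the result was not tested. The fasting response in IP minus that in supernatant was 0.84 ± 0.95 for Igf1 (adjusted p = 0.545), so a difference between the fractions was not shown. Without fed library C of the IP it was 2.04 (adjusted p = 0.0318). These fits treat IP and supernatant libraries as independent although they share mice. With the mouse as a block and all libraries kept, Igf1 was again not called. Igfbp5 was then the 1 member called, beside 1464 of 14322 genes. The antisense transcript Igf1os overlaps Igf1 in GENCODE, and since the sources do not say whether counting used strand, their reads may be mixed.

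Igfals (chr17:24878770-24882008, plus strand) encodes the acid-labile subunit that closes the ternary complex around IGF1. Its libraries held 6.49, 10.1 and 5.89 CPM in fresh IP of fasted mice, against 11.3, 22.7 and 19.2 CPM in fresh IP of fed mice. In frozen IP they held 5.86, 7.26 and 5.83 CPM in fasted mice, against 10.7, 14.4 and 19.2 CPM in fed mice. The groups do not overlap in either preparation, and every fasted value is the lower. Igfals fell by 1.21 ± 0.39 on the log2 scale in fresh IP (edgeR adjusted p = 0.0243) and by 1.23 ± 0.26 in frozen IP (adjusted p = 0.00946). The call in fresh IP ended without any of 4 libraries, at adjusted p = 0.0754 and -1.01 without fed B, 0.0523 and -1.15 without fed C, 0.0917 and -1.12 without fasted A, and 0.0667 and -1.07 without fasted C. In frozen IP it held in each of the 6 omissions. In supernatant Igfals stood at 0.39 to 1.03 CPM, from 13 to 42 reads per library, with a log2 change of -0.07 ± 0.52 (adjusted p = 0.953), and the response in IP minus that in supernatant was -1.19 ± 0.66 (adjusted p = 0.241).

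Igfbp1 (chr11:7197787-7202546, plus strand) encodes a short-lived binding protein known to rise in plasma on fasting, and it had the greatest rise among the members. In fresh IP its libraries held 379, 123 and 320 CPM in fasted mice, against 60.4, 76.6 and 11.1 CPM in fed mice. In frozen IP they held 350, 123 and 303 CPM in fasted mice, against 55.2, 59.4 and 15.0 CPM in fed mice. In supernatant they held 8.67, 4.68 and 10.5 CPM in fasted mice, against 1.76, 1.16 and 0.39 CPM in fed mice. Fasted and fed mice do not overlap in any of the 3 fractions, and the lowest library was B among fasted mice and C among fed mice in each. The log2 change was 2.51 ± 1.0 in fresh IP (edgeR adjusted p = 0.0323), 2.59 ± 0.80 in frozen IP (adjusted p = 0.0156) and 2.83 ± 0.69 in supernatant (adjusted p = 0.0196). The response in IP minus that in supernatant was -0.38 ± 1.20 (adjusted p = 0.830). With the log2 change and adjusted p in brackets, the fresh IP call ended without fed A (2.67, 0.0769), fed B (2.97, 0.0528), fasted A (2.19, 0.101) and fasted C (2.37, 0.0721), the frozen IP call without fasted A (2.31, 0.0541), and the supernatant call without fed B (2.84, 0.0686), without fasted A (2.76, 0.0726) and in the single fit of all 18 libraries (2.83, 0.0563). The change stayed above 2 log2 units in each of these. The 8 hepatocyte markers summed to 19692 to 26028 CPM in fresh IP of fasted mice and 14325 to 19191 CPM in that of fed mice, with 2 of 8 called higher, 1 lower and a median log2 change of 0.24, and in supernatant 1 of 8 was called higher with a median of 0.58. Their part in the rise of Igfbp1 and of Igfbp2 was not tested.

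Igfbp2 (chr1:72824480-72852471, plus strand) encodes a second small-complex carrier and was higher in fasted mice, as Igfbp1 was. In fresh IP its libraries held 487, 687 and 1131 CPM in fasted mice, against 367, 254 and 91.5 CPM in fed mice. In frozen IP they held 381, 589 and 958 CPM in fasted mice, against 296, 217 and 84.9 CPM in fed mice. In supernatant they held 9.28, 10.6 and 29.7 CPM in fasted mice, against 5.97, 5.44 and 2.4 CPM in fed mice. All fasted values lie above all fed values within each fraction. Igfbp2 rose by 1.72 ± 0.68 on the log2 scale in fresh IP (edgeR adjusted p = 0.0380) and by 1.68 ± 0.66 in frozen IP (adjusted p = 0.0369). The change in supernatant was 1.84 ± 0.66 (adjusted p = 0.0750), which DESeq2 called (adjusted p = 0.0350), and the response in IP minus that in supernatant was -0.19 ± 0.94 (adjusted p = 0.906). The fresh IP call ended without fed B (1.77, 0.0987), fasted A (1.96, 0.0568), fasted B (1.80, 0.0601) and fasted C (1.32, 0.109), and the frozen IP call without fed B (1.75, 0.0894), fed C (1.31, 0.0518), fasted B (1.74, 0.0664) and fasted C (1.28, 0.109).

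Within each feeding state the mice ranked in opposite orders for Igf1 and Igfbp2 in both IP fractions. Among fasted mice library A had the highest Igf1 and the lowest Igfbp2, and library C the lowest Igf1 and the highest Igfbp2. Among fed mice library C had the highest Igf1 and the lowest Igfbp2, and library A the reverse. Fresh and frozen IP of one letter derive from the same liver as far as their deviations show, so the repeat of the ranking is a repeat of the measurement and not of the mice, and with 3 mice a state no test was made. Fed library C, at the end of both rankings, also differed from fed A and B across genes, so its place may not be particular to these genes. Igfbp1 does not follow this ranking, since fasted library B is its lowest.

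**Figure D2:**
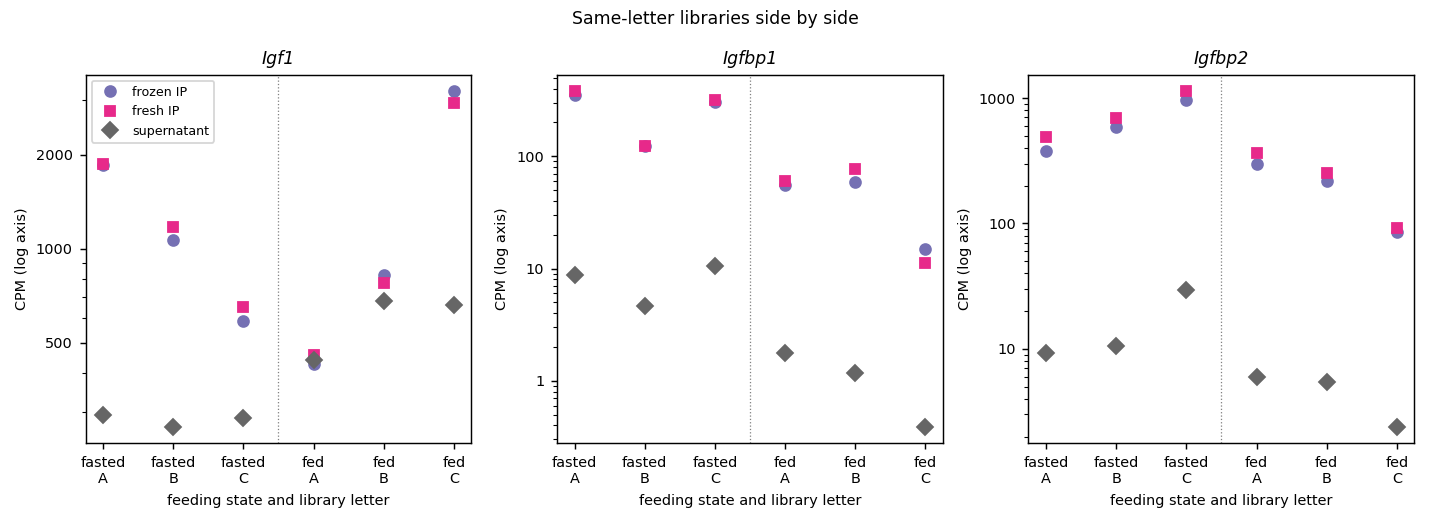
CPM (log axis) of Igf1, Igfbp1 and Igfbp2 for the libraries A, B and C of fasted mice, left, and fed mice, right, in frozen IP, fresh IP and supernatant. Frozen and fresh IP points of one letter lie close together, and the mice rank in opposite orders for Igf1 and Igfbp2 within each state in IP.

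Igfbp5 (chr1:72858065-72874865, minus strand) encodes a binding protein that can take part in the ternary complex, and it had the largest fasting change among the 9 genes in both IP fractions. In fresh IP its libraries held 0.63, 0.95 and 0.30 CPM in fasted mice, against 8.05, 11.4 and 8.26 CPM in fed mice. In frozen IP they held 0.95, 0.97 and 0.59 CPM in fasted mice, against 8.28, 17.5 and 8.70 CPM in fed mice. The fasted values rest on 9 to 49 reads per library in fresh IP and 23 to 39 in frozen IP, the fed values on 260 to 375 and 222 to 403 reads. Every fed library stands far above every fasted library. Igfbp5 fell by 3.80 ± 0.47 on the log2 scale in fresh IP (edgeR adjusted p = 0.00108) and by 3.75 ± 0.41 in frozen IP (adjusted p = 0.00102), and it was called in each of the 6 omissions in both.

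The fall of Igfbp5 was not seen in the supernatant. There its libraries held 3.62, 4.95 and 9.01 CPM in fasted mice, against 6.26, 9.31 and 2.61 CPM in fed mice, with overlap throughout. The log2 change was -0.05 ± 0.65 (edgeR adjusted p = 0.969). The response in fresh IP minus that in supernatant was -3.79 ± 0.81 (adjusted p = 0.00690), and Igfbp5 was the 1 member of 9 called in this test, in which 9.54% of 14322 genes were called (3.71% higher and 5.83% lower). Mean Igfbp5 in fresh IP was 10.7% of that in supernatant in fasted mice and 153% in fed mice. The median over the 8 stellate cell and fibroblast markers was 6.22% in fasted mice and 7.14% in fed mice, and that of the endothelial markers 1.76% and 3.98%. It was 0.19% and 0.20% for the Kupffer cell and macrophage markers, and 0.40% and 0.77% for the lymphocyte markers. The 6 cholangiocyte markers had a median of 67.7% in fasted mice and 153% in fed mice. They ranged from 5.48% to 1235% in fasted mice and from 10.8% to 1636% in fed mice. These percents are ratios of very low levels. In fed mice Krt19 averaged 0.07 CPM in fresh IP and 0.14 CPM in supernatant, Epcam 0.12 and 0.13 CPM, and Cftr 0.49 and 0.23 CPM. In fresh IP the stellate cell and fibroblast markers summed to 45.2 to 58.8 CPM in fasted mice and 64.1 to 122 CPM in fed mice, with 1 of 7 tested called lower and a median log2 change of -0.79. Of the cholangiocyte markers 0 of 3 tested were called there, with a median of -0.34. The part of other cells in the fall of Igfbp5 was not tested.

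Igfbp4 (chr11:99041260-99052643, plus strand), an inhibitory binding protein cleaved by PAPP-A, was abundant in hepatocyte nuclei and was called in no fasting comparison. Its libraries held 440, 319 and 473 CPM in fresh IP of fasted mice, against 507, 453 and 363 CPM in fresh IP of fed mice. In frozen IP they held 352, 248 and 415 CPM in fasted mice, against 440, 296 and 340 CPM in fed mice. In supernatant they held 40.8, 40.1 and 55.8 CPM in fasted mice, against 46.3, 35.6 and 29.4 CPM in fed mice. The groups overlap in all 3 fractions. The log2 change was -0.08 ± 0.22 in fresh IP (edgeR adjusted p = 0.779), -0.08 ± 0.28 in frozen IP and 0.31 ± 0.23 in supernatant, none of them called.

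Igf1r (chr7:67952257-68233667, plus strand), Igfbp3 (chr11:7206091-7213923, minus strand) and Igfbp7 (chr5:77349240-77408045, minus strand) were genes of the unbound nuclei. IGFBP3 is the main carrier in the ternary complex, made in rat liver by non-parenchymal cells, and IGFBP7 is a low-affinity relative made by endothelial cells. Igf1r held 10.6, 14.9 and 7.99 CPM in fresh IP of fasted mice, against 9.21, 9.81 and 13.8 CPM in that of fed mice, a log2 change of 0.04 ± 0.32. In frozen IP Igf1r held 22.4, 22.4 and 17.2 CPM in fasted mice, against 19.5, 22.2 and 21.6 CPM in fed mice, a change of -0.03 ± 0.14. The receptor gene showed no separation in IP, and its supernatant values were much higher. In supernatant Igf1r held 266, 260 and 438 CPM in fasted mice, against 232, 169 and 195 CPM in fed mice. These groups do not overlap, but the change of 0.70 ± 0.27 did not pass edgeR's test (adjusted p = 0.0971) and was called by DESeq2 (adjusted p = 0.0210).

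Igfbp3 was near the limit of counting in IP. It held 0.60, 0.47 and 0.69 CPM in fresh IP of fasted mice, against 0.67, 0.44 and 0.35 CPM in that of fed mice, and 0.68, 0.59 and 1.08 CPM in frozen IP of fasted mice, against 0.82, 1.34 and 0.91 CPM in frozen IP of fed mice. In supernatant it held 8.32, 5.05 and 18.3 CPM in fasted mice, against 9.05, 7.74 and 5.28 CPM in fed mice. The IP values rest on 10 to 42 reads per library, and the groups overlap in each fraction. The log2 change was 0.26 ± 0.28 in fresh IP, -0.34 ± 0.32 in frozen IP and 0.52 ± 0.57 in supernatant, none called. Igfbp3 and Igfbp1 end facing each other 3544 bases apart, as Igfbp2 and Igfbp5 do 5593 bases apart. In both IP fractions Igfbp2 was called higher with fasting and Igfbp5 lower. Igfbp1 was called higher in each fraction, and Igfbp3, at its few reads in IP, was not called. A difference in response between neighbours was not tested.

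Igfbp7 was called in frozen IP and not in fresh IP, and the difference between these responses was not called. It held 15.3, 13.6 and 12.0 CPM in frozen IP of fasted mice, against 20.3, 26.4 and 22.4 CPM in frozen IP of fed mice, a log2 change of -0.75 ± 0.16 (edgeR adjusted p = 0.0151). In fresh IP it held 6.85, 10.8 and 5.36 CPM in fasted mice, against 8.03, 8.97 and 15.5 CPM in fed mice, a change of -0.48 ± 0.42 (adjusted p = 0.321). In supernatant it held 211, 245 and 320 CPM in fasted mice, against 279, 211 and 185 CPM in fed mice, a change of 0.21 ± 0.24. The values of the IP fractions are a small part of those in supernatant, and some markers of other cells were lower in frozen IP of fasted mice too. In frozen IP the endothelial markers summed to 83.9 to 126 CPM in fasted mice and 137 to 200 CPM in fed mice, with 3 of 8 lower, 1 of 8 higher and a median log2 change of -0.81. The stellate cell and fibroblast markers summed to 46.8 to 58.2 CPM in fasted mice and 70.7 to 115 CPM in fed mice, with 5 of 8 lower and a median of -1.05. Of the Kupffer cell and macrophage markers 0 of 8 were lower and 1 was higher. Lymphocyte markers had 1 of 6 lower, and 0 of 5 cholangiocyte markers were called. Over all genes 11.6% were called lower and 11% higher in frozen IP. In fresh IP 0 of 8 endothelial markers were called. The part of these cells in the fall of Igfbp7 was not tested. Igfbp7 also overlaps Polr2b on the opposite strand in the count table, and the log2 change of Polr2b was 0.43 in frozen IP and was not called.

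**Figure D3:**
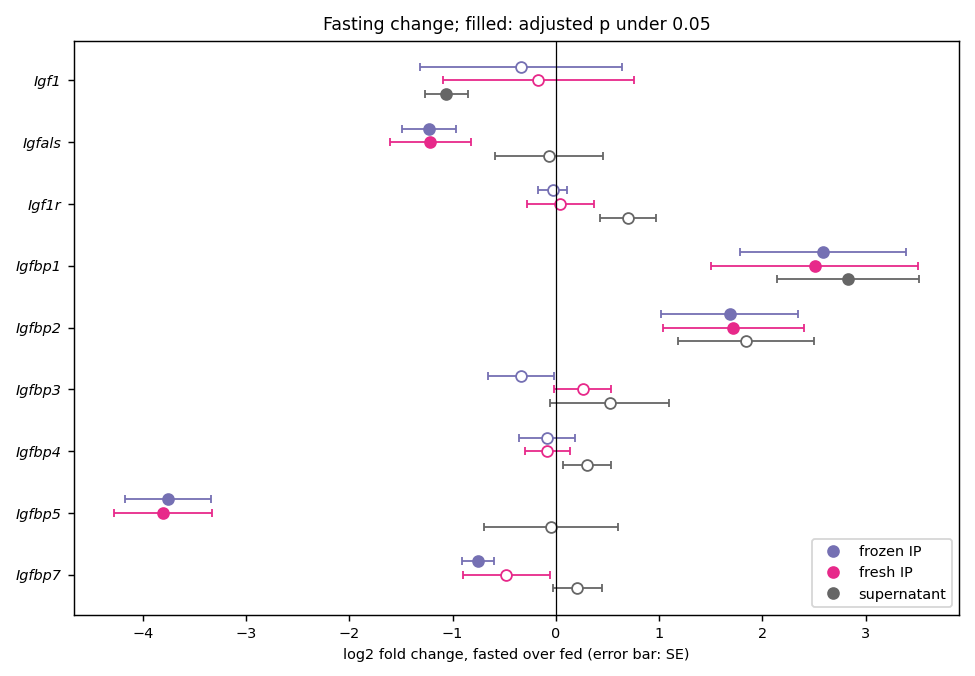
Log2 fold change of each gene with fasting, fasted over fed, in frozen IP, fresh IP and supernatant, with the SE as error bar. Filled points passed the adjusted p threshold of 0.05; Igfbp1 and Igfbp2 lie to the right and Igfbp5 and Igfals to the left in both IP fractions, and Igf1 passes in supernatant.

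In the authors' deposited table the fasting changes in fresh IP were 2.43 for Igfbp1 (adjusted p = 0.00512), 1.65 for Igfbp2 (0.0137), -1.29 for Igfals (0.00204), -3.91 for Igfbp5 (2.16e-13) and -0.24 for Igf1 (0.852), and in frozen IP 2.50, 1.61, -1.30, -3.85 and -0.39 in the same order. For Igfbp7 the authors' deposited table gives -0.55 (0.141) in fresh IP and -0.83 (0.0165) in frozen IP.

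Bound and unbound nuclei of fresh liver were compared by the mean of the differences in fed and in fasted mice. By this mean 5 members were higher in IP and 4 higher in supernatant, all 9 called, where 85.1% of 14322 genes were called (42% higher and 43% lower). Igfbp2 was 5.56 ± 0.47 log2 units higher in IP (edgeR adjusted p = 1.57e-07), Igfbp1 5.22 ± 0.60 (9.89e-07), Igfals 4.17 ± 0.33 (4.79e-08) and Igfbp4 3.32 ± 0.15 (4.12e-10). The hepatocyte markers had a median of 4.61, with 8 of 8 higher in IP. Igf1 was higher in IP by 1.63 ± 0.48 (adjusted p = 0.00252), a smaller estimate than those of these 4 genes, and by 1.04 without fed library C of the IP (adjusted p = 0.00221). The opposite side held Igfbp7 at -4.76 ± 0.25 (adjusted p = 1.65e-09), Igf1r at -4.55 ± 0.22 (7.67e-10), Igfbp3 at -4.08 ± 0.32 (1.29e-07) and Igfbp5 at -1.31 ± 0.41 (0.00301). For Igfbp5 this value averages opposite directions. Its mean level in fresh IP was 10.7% of that in supernatant in fasted mice and 153% in fed mice. The endothelial markers had a median of -5.21 and the stellate cell and fibroblast markers one of -3.94, all 8 of each lower in IP. These values assume that most genes were equal in level between fractions; with library totals in place of trimmed-mean factors the median over all genes shifts by -0.34.

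Levels between genes can be set side by side only per kb of gene span, introns included. In fresh IP of fasted mice Igfbp1 led at 57.6 CPM per kb, followed by Igfbp4 at 36.1, Igfbp2 at 27.4 and Igf1 at 15.8 CPM per kb, each overlapping the next in range. Igfals followed at 2.31 CPM per kb, and Igfbp7 at 0.130, Igfbp3 at 0.0749, Igf1r at 0.0396 and Igfbp5 at 0.0373 CPM per kb, of which Igf1r and Igfbp5 overlap. In fresh IP of fed mice the order was Igfbp4 at 38.7, Igf1 at 17.8, Igfbp1 at 10.4, Igfbp2 at 8.49 and Igfals at 5.47 CPM per kb, with neighbours overlapping throughout. Below them stood Igfbp5 at 0.551, Igfbp7 at 0.184, Igfbp3 at 0.0620 and Igf1r at 0.0389 CPM per kb, of which Igfbp3 and Igf1r overlap. Igfbp5 was thus last of 9 in fasted mice and sixth in fed mice.

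The frozen IP gave the same leading genes. In fasted mice Igfbp1 stood at 54.3, Igfbp4 at 29.7, Igfbp2 at 23.0, Igf1 at 15.0 and Igfals at 1.95 CPM per kb, and in fed mice Igfbp4 at 31.5, Igf1 at 19.0, Igfbp1 at 9.07, Igfbp2 at 7.12 and Igfals at 4.56 CPM per kb. The other 4 genes were under 0.7 CPM per kb in both states. In supernatant of fasted mice Igfbp7 at 4.40, Igfbp4 at 4.01 and Igf1 at 3.63 CPM per kb led with overlapping ranges, and Igfals was last at 0.183 CPM per kb, overlapping Igfbp5 at 0.349. In supernatant of fed mice Igf1 led at 7.62 CPM per kb, above the range of Igfbp7 at 3.83 and Igfbp4 at 3.26 CPM per kb, and Igfbp2 was last at 0.164 CPM per kb, overlapping Igfals at 0.194.

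**Figure D4:**
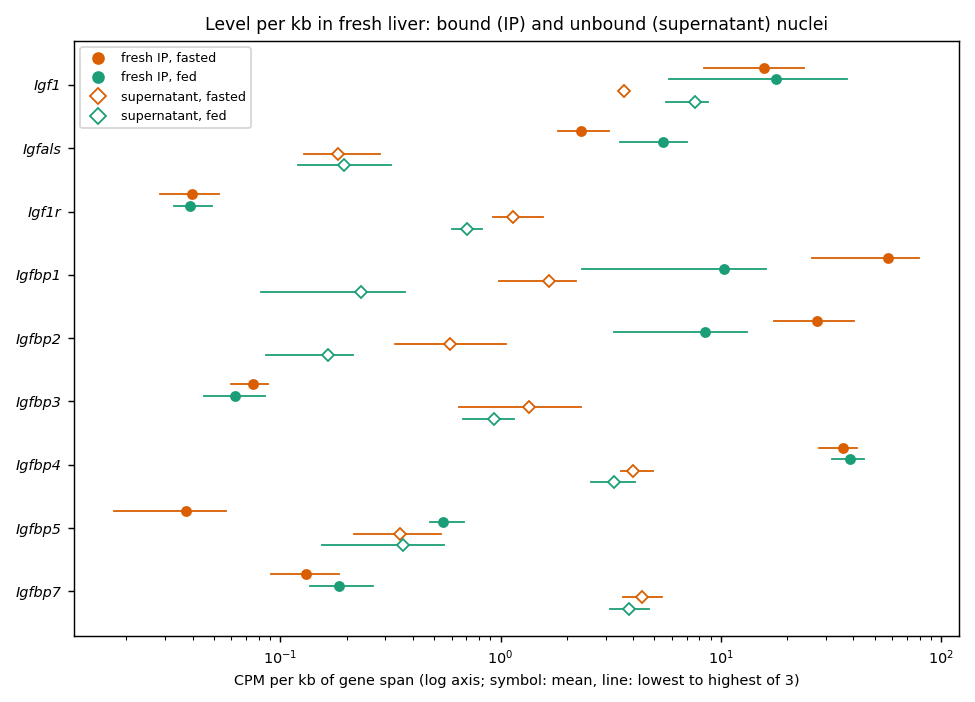
CPM per kb of gene span (log axis) of each gene in fresh IP (filled) and supernatant (open) of fasted (orange) and fed (green) mice; symbols are means and lines run from the lowest to the highest of 3. Igfals, Igfbp1, Igfbp2 and Igfbp4 lie to the right in IP, and Igf1r, Igfbp3 and Igfbp7 in supernatant.

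A difference between frozen and fresh liver in the fasting change was not shown for any of the 9 genes. No gene of 13162 was called in edgeR's test of the difference of the fasting response between frozen and fresh IP (0%), 43 genes and 0 members had an unadjusted p under 0.05, and DESeq2 also called 0. That fit treats the libraries as independent although fresh and frozen IP share their mice, which can make it too cautious. With the mouse as a block 0 genes and 0 members were again called, and 278 genes and 0 members had an unadjusted p under 0.05. In level, Igf1r was 0.94 ± 0.18 log2 units higher in frozen IP than in fresh IP (edgeR adjusted p = 0.00549) and Igfbp7 0.97 ± 0.23 higher (adjusted p = 0.0146), 2 of 9 members where 5.16% of 13162 genes were called (4.72% higher and 0.441% lower). Igfbp2 at -0.23 ± 0.48 (adjusted p = 0.998) and Igfbp4 at -0.26 ± 0.18 (adjusted p = 0.608) were not called, and with the mouse as a block they were, at -0.22 (adjusted p = 0.00198) and -0.27 (adjusted p = 0.00944). Some marker lists of other cells had genes called higher in frozen IP too: 7 of 8 endothelial markers, with a median log2 difference of 1.19, and 6 of 8 Kupffer cell and macrophage markers, with a median of 2.01. Fewer were called among stellate cell and fibroblast markers (2 of 8, median 0.24), lymphocyte markers (3 of 6, median 1.36) and cholangiocyte markers (0 of 6, median 1.11). Their part in the rise of Igf1r and Igfbp7 was not tested.

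Other genes of the axis were read from a list of 19 partners, receptors and proteases, of which 8 were tested in fresh IP. There 1 rose and 0 fell, beside 25.1% of all genes called, and the median log2 change was -0.04. The gene that rose was Irs2, an adaptor of the insulin and IGF1 receptors, at 195 ± 57.1 CPM in fasted mice and 76.5 ± 32.4 CPM in fed mice (SD, n = 3 each), a log2 change of 1.37 ± 0.48 (edgeR adjusted p = 0.0260). Irs2 was also the 1 gene of 10 called in frozen IP, at 1.50 ± 0.43 (adjusted p = 0.0153). There 22.6% of all genes were called, and the list's median was -0.13. In supernatant 3 of 12 were called, beside 6.22% of all genes, and the median was -0.09. These were Irs2 at 1.08 ± 0.20 (adjusted p = 0.0151), the insulin receptor gene Insr at 0.43 ± 0.07 (0.0308), and Igf2bp2, an RNA-binding protein of Igf2 transcripts, at -1.19 ± 0.24 (0.0171). Between fractions 6 of 12 were higher in IP and 5 lower, beside 42% of all genes called higher and 43% called lower. Among them were the adaptors Grb14 at 5.11 and Irs1 at 4.45, against Htra1 at -4.74, Stc2 at -4.63, the Igfbp4 protease gene Pappa at -4.14 and the adaptor Grb10 at -3.62 log2 units. Htra1, Stc2 and Pappa were near 0 in fresh IP, so the size of their differences rests on few reads. In fasted and fed fresh IP Htra1 averaged 0.09 and 0.23 CPM, Stc2 0.013 and 0.008 CPM, and Pappa 0.13 and 0.08 CPM.

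Growth hormone is the main stimulus of Igf1 and Igfals, and its signalling list held 15 genes. In fresh IP 1 of 14 rose and 2 fell, a share near the 25.1% called over all genes, with a median log2 change of -0.55. The growth hormone receptor gene Ghr had 4099 ± 360 CPM in fasted mice and 8746 ± 1075 CPM in fed mice (SD, n = 3 each), a change of -1.08 ± 0.14 (edgeR adjusted p = 0.00543). The receptor's kinase gene Jak2 changed by -0.76 ± 0.09 (adjusted p = 0.00445) and the phosphatase gene Ptpn11 by 0.49 ± 0.12 (0.0257). In frozen IP Ghr, Jak2 and Ptpn11 were again the 3 genes called of 14, at -1.15, -0.81 and 0.54, again near the share over all genes (22.6%), with a list median of -0.55. In supernatant only the phosphatase gene Ptpn6 was called of 15 (6.22% over all genes), at -0.67 ± 0.10 (adjusted p = 0.0112), and the median was 0.02. For Ghr the response in fresh IP minus that in supernatant was -0.93 ± 0.28 (adjusted p = 0.0489).

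A list of 16 transcriptional and hormonal regulators known for Igfbp1 or Igf1 was tested in full; its genes are named here because they passed, with their values known. In fresh IP 5 of 16 rose and 3 fell, beside the 25.1% of all genes called there, with a median of -0.18: the insulin-restrained factor Foxo1 by 1.41 ± 0.30 (edgeR adjusted p = 0.00790), the coactivator Ppargc1a by 1.95 ± 0.27, the hormone gene Fgf21 by 5.03 ± 0.58, and Cebpb and Hnf4a by less, against Foxa2 at -1.06 ± 0.21, the glucocorticoid receptor gene Nr3c1 at -0.75 ± 0.08 and Atf4 at -0.42 ± 0.10. In frozen IP 3 rose (Foxo1, Ppargc1a and Fgf21) and 4 fell (Cebpa, Foxa1, Foxa2 and Nr3c1), beside 22.6% of all genes, with a median of -0.09. In supernatant 3 rose (Fgf21, Ppargc1a and Hnf4a) and Nr3c1 fell, beside 6.22% of all genes, with a median of 0.04. The 3 that rose stood far lower there than in fresh IP. In fasted and fed supernatant Fgf21 averaged 0.44 and 0.0086 CPM, Ppargc1a 10.7 and 4.29, and Hnf4a 28.5 and 16.8. In fresh IP of fasted mice they averaged 18.1, 531 and 801 CPM. Hnf4a is also 1 of the 8 hepatocyte markers. The part of hepatocyte nuclei left in the supernatant was not tested.

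Genes with the most similar profile were found by the root mean square difference of the 6 group means of log2 CPM, each gene centred on its own mean, among genes with at least 1 CPM on average. The closest to Igfbp2 were Pllp (0.0877 log2 units), Sult2a1 (0.166) and Ppargc1a (0.190), and the closest to Igfals were Ppp1r3b (0.0851), Fgfr3 (0.116) and Slc27a5 (0.117). Igfbp1 had looser neighbours, Cyp4a31 (0.233), Plin5 (0.306) and Mfsd2a (0.314), as had Igfbp5 with Htra4 (0.283), Fabp5 (0.307) and Serpinb1a (0.386). Profiles closest to Igf1 were those of Stpg2 (0.180), Tarsl2 (0.185) and Atp8b5 (0.187). Igfbp4 was closest to L3hypdh (0.0587), Prob1 (0.0841) and Gstt2 (0.106). Among the genes of the unbound nuclei, Igf1r was closest to Ttll7 (0.0995), Nova2 (0.103) and Slc43a3 (0.125), Igfbp3 to Pdzd4 (0.110), Plod2 (0.146) and Tgfb1i1 (0.148), and Igfbp7 to Ica1 (0.0517), Cdr2l (0.0814) and Amotl1 (0.0814). These are descriptions over 6 groups that share mice.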

How the data were processed

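Nuclear total RNA was sequenced as 50 bp paired reads without poly-A selection, from a stranded kit, per the labels' protocols. The submitters' processing notes name mm10 as the build and, without their roles, the tools STAR (2.4.2a) and DESeq2 (1.24.0), and the counting tool and its strand setting are not given in the sources used here. The authors deposited raw counts per gene for 20105 genes, over a length equal to end minus start in all of them, and a table with their own log2 fold changes and adjusted p-values, used only where named. The authors also deposited a normalized signal, their counts divided by 1 factor per library as the values show, which was not used. A further 6 columns matched no sample and were not used.

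From the counts, genes were filtered with filterByExpr, scaled with TMM factors and tested in edgeR 4.0.16 (R 4.3.3, quasi-likelihood, Benjamini-Hochberg over all genes tested, threshold 0.05) in 7 comparisons, each fitted on its own groups. The test was also run on simulated counts drawn independently for each library, which cannot check the fits whose libraries share mice. The SE of a log2 change comes from the group means of log2 CPM (prior count 2) and treats libraries as independent. Replicates are separate mice as far as the design text says, 3 per state. The sample titles carry a number that recurs across fresh IP, supernatant and frozen IP of a feeding state. Letters A, B and C stand in the column names and in no label, so no label ties a letter to such a number. The title of a frozen IP library of fed mice opens with a running number apart from the others, and its meaning is not given. Deviations from group means correlated at 0.555 to 0.902 for IP libraries of the same letter (frozen with fresh) and at 0.152 to 0.437 for IP with supernatant of the same letter, against -0.586 to 0.010 between different letters, so the letter was used as a mouse block in an alternative. Within groups no libraries agreed to sampling noise (chi-square per gene at least 16.1).

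Alternatives were RLE size factors, no filter on low counts, DESeq2 1.42.0, all 18 libraries in 1 fit, the mouse block, single omissions of a library and, chosen after seeing the data, library totals without TMM. The members and gene lists were chosen with earlier results of these data known. All 9 genes are named; list genes are named when called, up to 6 per comparison, except the regulators.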

Additional observations from a re-analysis of the deposited data

Results flagged for a closer look

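Igfbp5 differed between fractions in its fasting response. The log2 change was -3.80 in fresh IP and -0.05 in supernatant, and the difference of the responses, IP minus supernatant, was -3.79 ± 0.81 in edgeR's interaction test (adjusted p = 0.00690). Fasted fresh IP libraries held 0.63, 0.95 and 0.30 CPM, below each of the 3 fed ones at 8.05, 11.4 and 8.26 CPM. Over the 12 single omissions the difference ran from -4.28 to -3.31 and the adjusted p from 0.00707 to 0.0226. With the mouse as a block the difference was -3.85 (adjusted p = 0.0122).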

How the results depend on the processing

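The number of the 9 genes called was 4 in fresh IP, 5 in frozen IP, 9 between IP and supernatant, 1 in the response difference between IP and supernatant and 0 in that between frozen and fresh IP under RLE size factors, no low-count filter, DESeq2, 1 fit of all 18 libraries and library totals without TMM. In supernatant it was 2 in edgeR, 4 in DESeq2 (Igf1r and Igfbp2 added) and 0 in the fit of all 18 libraries. Between frozen and fresh IP it was 2, and 4 with the mouse block. No fasting comparison could be paired, since fasted and fed libraries come from different mice. Leaving out 1 library gave 1 to 3 genes in fresh IP, 4 to 5 in frozen IP, 0 to 2 in supernatant and 1 to 2 in the response difference between IP and supernatant. Log2 changes that were not called turned sign in some omissions: Igf1 ran from -0.61 to 1.01 in fresh IP and -0.84 to 0.90 in frozen IP, Igf1r from -0.22 to 0.25 and -0.0944 to 0.0827, Igfbp4 from -0.20 to 0.0736 and -0.26 to 0.0903, and in supernatant Igfals from -0.55 to 0.48, Igfbp3 from -0.12 to 0.85 and Igfbp5 from -0.49 to 0.39. The response difference between IP and supernatant ran from -0.86 to 0.0748 for Igfbp1 and from -0.56 to 0.58 for Igfbp2, and for Igfbp2 it was 0.0107 with the mouse block. The causes were not tested. Other results kept their direction. Over all genes, calls moved by more than 1.5 times in supernatant (866 in edgeR, 1881 in DESeq2), in the response difference between IP and supernatant (1367 and 2326) and between frozen and fresh IP (679, and 2168 with the block), and in the fit of all 18 libraries in frozen IP there were 4366 against 2918. Leaving out 1 library gave 1429 to 2643 genes in fresh IP, 1168 to 2271 in frozen IP, 197 to 624 in supernatant, 771 to 1485 in the response difference between IP and supernatant and 409 to 711 between frozen and fresh IP. Depth limits the fasted IP level of Igfbp5, at 9 to 49 reads per library, and those of Igfbp3 in IP and Igfals in supernatant.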
